A study of Mus musculus with 25 samples.

Results

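Tim4+ MHCII low macrophages of mouse white adipose tissue were compared between a high fat diet (HFD, 45% fat) and a control diet (CD, 10% fat). The comparison used 4 of the 25 libraries of the series, chosen by their labelled sort gate and diet: CD libraries 7 and 8 and HFD libraries 2 and 3, where the numbers come from the titles. All 4 were made from C57BL6 mice, and the labels name no transgene and no agent other than the diet. The population is called pop1, or alpha, in the labels, and the tissue is given as eWAT in the titles. Each library held the RNA of 200 cells, sorted after collagenase II digestion to which flavopiridol, a blocker of transcription, had been added. The labels give neither the age or sex of the mice, nor the length of the diets, nor the number of animals behind a library, so a p-value may measure technical spread only. All adipose control libraries carry the title CD-CD, so diet and title series cannot be told apart. For comparison the series holds 3 further macrophage populations of the tissue with 2 libraries per diet each: a second Tim4+ gate, MHCII high, called pop2, and the Tim4- gates pop3 (MHCII high without CD11c) and pop4 (MHCII+ with CD11c). It also holds blood monocytes with 6 CD and 3 HFD libraries.

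Tim4, encoded by Timd4, is a receptor for phosphatidylserine, the lipid that dying cells expose, and it marks long-lived macrophages that reside in a tissue. The macrophages of the peritoneal cavity are the best known such cells: the transcription factor Gata6, induced by retinoic acid from the surrounding tissue, maintains in them a programme that includes the lipoxygenase Alox15, the coagulation factors F5 and F10 and the lubricating proteoglycan Prg4. In fat, resident macrophages take up lipid and cell debris, and a high fat diet is known for drawing monocyte-derived macrophages into the tissue.

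Levels are given in CPM, the usual unit of read counts of a gene relative to all reads assigned to genes, after scaling of the library totals. A gene was called when it passed an adjusted p of 0.05 in edgeR's quasi-likelihood test over all genes and, in addition, its 2 HFD libraries lay both above or both below its 2 CD libraries. Total counts were 5109149 and 6487657 in the CD libraries and 6629280 and 5585911 in the HFD libraries, so 3 counts, used here as the floor of detection, corresponded to 0.413 to 0.547 CPM. Floors and counting intervals cover counting error only. The gate showed in the class II genes: H2-Ab1 lay between 162 and 416 CPM in the 4 libraries against medians of 845 and 988 CPM in pop2 on CD and HFD. Timd4 was at 626 and 495 CPM on CD and at 371 and 263 CPM on HFD, without overlap, but with an adjusted p of 0.842.

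Several properties of the libraries moved with the diet. Olfactory and vomeronasal receptor genes, which macrophages are not known to use, summed to 644 and 607 CPM on CD and to 245 and 267 CPM on HFD. At least 1 read was found for 21204 and 21142 genes on CD and for 19403 and 19432 on HFD. Among genes of at least 50 CPM the median log2 difference, HFD minus CD, was -0.28 in the fifth with the shortest transcripts and 0.23 in the fifth with the longest. Red cell markers stood apart in HFD library 2, where they summed to 664 CPM against 2.76 CPM in HFD library 3 and 7.48 and 63.0 CPM on CD. Stromal markers were highest in CD library 8, at 838 CPM against 239 CPM in CD library 7 and 197 and 124 CPM on HFD. The part of these properties in the results below was not tested, apart from fits with the receptor background or the transcript length taken into account.

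**Figure D1:**
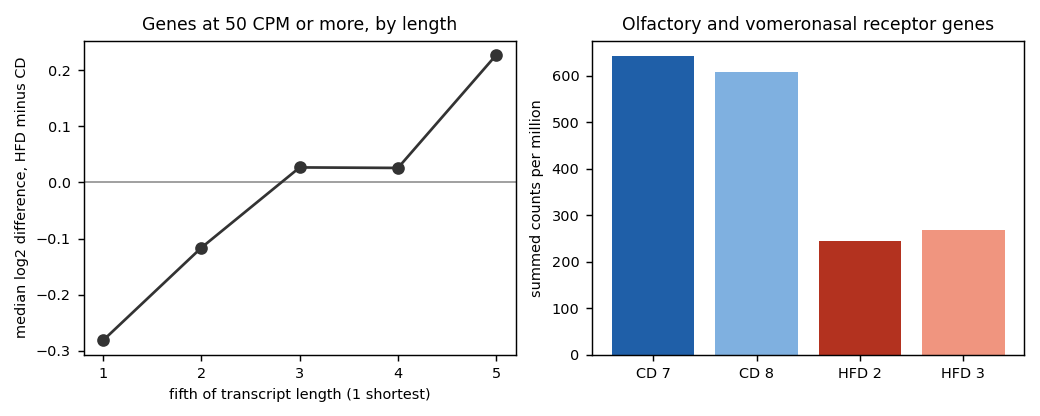
Left, median log2 difference (HFD minus CD) in Tim4+ MHCII low macrophages for genes of at least 50 CPM, in 5 classes of transcript length from shortest to longest; the medians run from -0.28 to 0.23. Right, summed CPM of olfactory and vomeronasal receptor genes in the 4 libraries; both HFD bars, at 245 and 267 CPM, are below both CD bars, at 644 and 607 CPM.

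On HFD, 65 genes were lower (0.383% of the 16961 tested) and 9 were higher (0.0531%), together 74 (0.436%). Genes of the peritoneal macrophage programme, with Gata6, stood among the lower ones beside the serpin Serpinb10, the C-type lectins Clec5a and Clec4b1 and both lysozymes. So did Ndufs4 of the respiratory chain and Atp5c1 and Atp5f1 of the ATP synthase. The kinase Braf, the replication inhibitor Gmnn and the nuclear RNA Malat1 were among the higher ones. By the position of the libraries alone, with no p-value, in 4492 genes (26.5%) both HFD libraries lay below both CD libraries and in 2616 (15.4%) both lay above, and the median log2 difference of all genes tested was -0.19. The spread behind the test was pooled over all 25 libraries. In a fit of the 16 adipose libraries alone 1 gene was called higher and 1 lower, and in a fit of the 4 libraries alone none, although 1150 genes had an unadjusted p under 0.05 there, while DESeq2 on the 25 libraries called 232 higher and 446 lower, with all 74 genes among them. With the receptor background as covariate 2 genes were called higher and 16 lower, 18 of the 74. Within pop1 that background moved with the diet, so this fit cannot tell background and diet apart. Leaving out 1 library at a time left a diet of pop1 with a single library. Most of the 74 calls were lost in each such fit, and the median log2 difference of all genes ran from -0.367 to -0.0545.

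The peritoneal programme had the lowest median difference of the 34 gene lists. In 22 of its 24 genes both HFD libraries lay below both CD libraries, against 26.5% of all genes, and in none did they lie above. The list was written with earlier results of these data known, so its rank and these shares are descriptions and no independent support. Gata6 also passed the filter on low counts through pop1 on CD and could only differ as lower on HFD. The 24 genes together made up 6574 and 6212 CPM in CD libraries 7 and 8 and 2376 and 1352 CPM in HFD libraries 2 and 3, a ratio of 3.43 between the means. The same sum was also lower on HFD without overlap in pop2, at 2287 and 1701 CPM on CD and 877 and 618 CPM on HFD, and whether the change of the sum differed between the populations was not tested. In pop1 the median log2 difference of the 24 genes was -2.62 (-2.55 with genes under the floor set at their bound) against -0.19 for all genes. The exact two-sided permutation test of the sums gave 0.333, the smallest p that 2 against 2 libraries allow. Prg4, Icam2, Gata6 and Fn1 were called, all lower. At an unadjusted p under 0.05, 8 of the 24 were lower and 0 higher, against 7.02% and 4.1% of all genes.

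**Figure D2:**
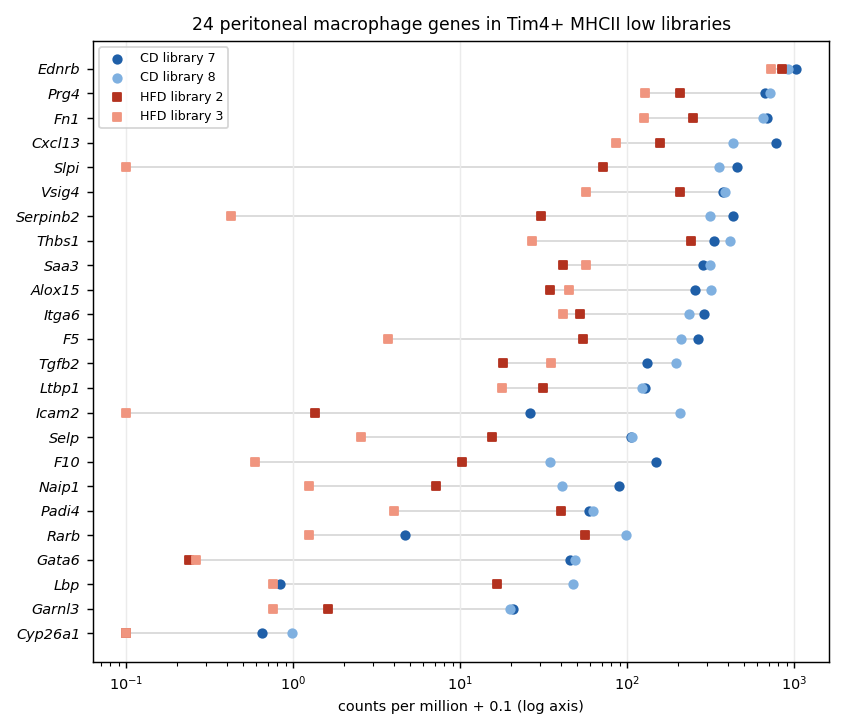
Level of each of the 24 genes of the peritoneal macrophage list in the 4 Tim4+ MHCII low libraries, in CPM plus 0.1 on a log axis; circles are the CD libraries and squares the HFD libraries, and the grey line joins the lowest to the highest. In 22 of the 24 genes both squares lie left of both circles, and Lbp and Rarb are the exceptions.

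Gata6, the transcription factor of the programme, was at 45.4 and 48.4 CPM on CD and at 0.138 and 0.163 CPM on HFD. The 2 HFD libraries held 2 reads of it against 580 on CD, a ratio of 316 (95% counting interval 87.0 to 2610; adjusted p = 0.0458). The CD libraries agreed closely and the HFD libraries lay under the floor. No other group of the series came near the CD level of pop1, since Gata6 did not exceed 1.17 CPM in any library of pop2, pop3, pop4 or monocytes. Its gene model overlaps that of the antisense RNA 1010001N08Rik, which had 1, 0, 2 and 17 reads in CD libraries 7 and 8 and HFD libraries 2 and 3.

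Prg4, the lubricating proteoglycan also called lubricin, was at 665 and 710 CPM on CD and at 206 and 127 CPM on HFD, a log2 difference of -2.05 (SE 0.37, adjusted p = 0.0122). Both HFD libraries kept a level above the 29.7 to 98.8 CPM of all other groups. Prg4 lies at chr1:150449412-150466165 (mm10, exons and introns), and its model overlaps on the opposite strand that of Tpr, which was called higher. Whether counting used the strand is not stated, so reads of the overlap could count for either gene. Fn1, the matrix protein fibronectin, was at 681 and 648 CPM on CD and at 248 and 125 CPM on HFD (log2 difference -1.83, SE 0.41, adjusted p = 0.048). Icam2, an adhesion molecule, was at 25.9 and 206 CPM on CD and at 1.24 and 0 CPM on HFD (adjusted p = 0.0369). Its CD libraries differed more from each other than those of Gata6, Prg4 or Fn1. All 4 kept their direction in each of 15 alternative fits, in which Prg4 and Icam2 passed the threshold 8 times, Fn1 5 times and Gata6 4 times.

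The other 20 genes did not pass. Alox15, which oxidises arachidonic and linoleic acid, was at 253 and 317 CPM on CD and at 34.2 and 44.9 CPM on HFD (log2 difference -2.85, SE 1.38, adjusted p = 0.456). Its groups did not overlap, and Alox15 did not exceed 1.60 CPM in any library of the other populations or of monocytes. F5, coagulation factor V, was at 266 and 210 CPM on CD and at 54.0 and 3.58 CPM on HFD. F10, coagulation factor X, was at 149 and 34.1 CPM on CD and at 10.2 and 0.488 CPM on HFD. Selp, the adhesion receptor P-selectin, was at 105 and 106 CPM on CD and at 15.4 and 2.44 CPM on HFD. In all 3, HFD library 3 was the lower of the HFD libraries. The same held for Serpinb2, an inhibitor of plasminogen activators, at 428 and 312 CPM on CD and 30.4 and 0.325 CPM on HFD. By contrast, the integrin Itga6 was at 287 and 234 CPM on CD and at a similar 52.2 and 41.0 CPM in both HFD libraries. Tgfb2, a growth factor of the TGF-beta family, was at 132 and 194 CPM on CD and at 17.8 and 34.8 CPM on HFD. Ednrb, the endothelin B receptor, had the smallest difference of the 22, at 1021 and 916 CPM on CD and 840 and 723 CPM on HFD, and Lbp and Rarb overlapped between the diets.

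Mesothelial cells, which line the same cavity, were looked for by their markers: the 11 in the table summed to 22.4 and 17.3 CPM on CD and 3.44 and 4.39 CPM on HFD, and the defining markers Msln and Upk3b did not exceed 1.28 CPM in any of the 4 libraries. In bulk libraries a smaller share of cells with a programme and less RNA per cell cannot be told apart. Macrophages of the peritoneal cavity also carry Tim4, and the part of such cells in the result was not tested.

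Retinoid genes held no called gene, against 0.436% of all genes. Of 17 genes tested for retinoid synthesis, binding and response, 4 lay below and 1 above on HFD, against 26.5% and 15.4% of all genes. The median log2 difference was -0.65. Aldh1a2, which makes retinoic acid, was at 10.6 and 19.7 CPM on CD and at 76.6 and 29.6 CPM on HFD (adjusted p = 0.449). The receptor gene Rara overlapped between the diets, at 19.7 and 6.58 CPM on CD and 19.0 and 61.8 CPM on HFD. Among 27 transcription factors of macrophage identity Gata6 was the only gene called. Of the 27, 6 lay below and 7 above on HFD, against the same 26.5% and 15.4%, with a median of 0.29. Id2, an inhibitor of helix-loop-helix factors, was at 219 and 176 CPM on CD and at 28.1 and 2.93 CPM on HFD (adjusted p = 0.0796). Bhlhe40, a helix-loop-helix repressor, was at 70.6 and 103 CPM on CD and 12.7 and 0.975 CPM on HFD (adjusted p = 0.223). Maf and Klf4, which are known for general macrophage identity, had both HFD libraries above both CD libraries, with log2 differences of 0.21 and 0.61 and no call.

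**Figure D3:**
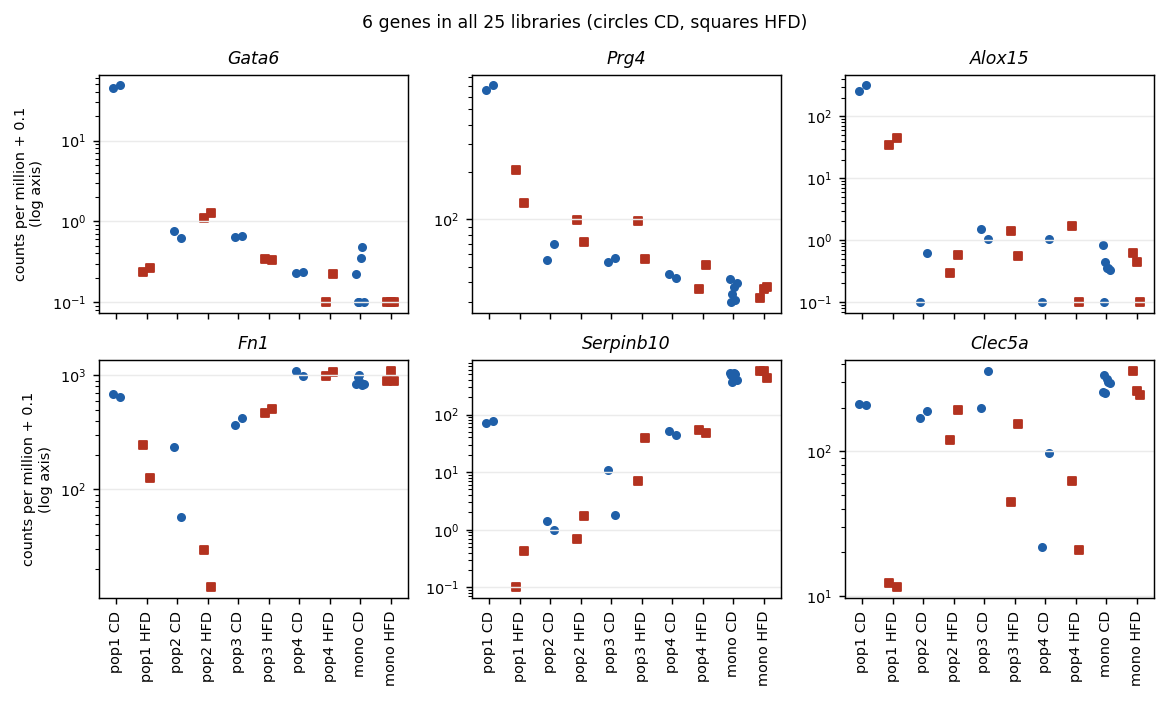
Level of Gata6, Prg4, Alox15, Fn1, Serpinb10 and Clec5a in each of the 25 libraries, in CPM plus 0.1 on a log axis, by population and diet; circles are CD and squares HFD. Gata6 and Alox15 stand above all other groups in pop1 on CD, whereas Fn1, Serpinb10 and Clec5a are also high in monocytes on both diets.

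Serpinb10, an intracellular serine protease inhibitor of the clade B serpins, gave the smallest p of the comparison. It was at 71.7 and 76.3 CPM in the CD libraries and at 0 and 0.325 CPM in the HFD libraries, with 915 reads on CD against 2 on HFD. The ratio was 498 (95% counting interval 137 to 4120; adjusted p = 0.00022), and the call held in 12 of 15 alternative fits. Its neighbour Serpinb2, listed above with the peritoneal genes, was lower on HFD by its levels without being called: Serpinb2 lies at chr1:107511423-107525600 and Serpinb10 at chr1:107529003-107549271 on mm10. The genes were not alike in other populations, since Serpinb10 was at 368 to 576 CPM in monocytes and 44.3 to 54.6 CPM in pop4, where the median of Serpinb2 on CD was 0.329 CPM.

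The 250 bases before the start of 4 genes are shown: Serpinb10, its neighbour Serpinb2, and Wnt2 and Cyp2r1, with 1 and 0 reads on HFD. The part of Gata6 in their levels was not tested. Capitals mark AGATAA or TGATAA on either strand (TTATCT and TTATCA on the other), hexamers of the kind that GATA factors are known to bind. The sequences are from RefSeq, build GRCm38.p6, each written 5′ to 3′ on the strand of its gene.
Serpinb10, chr1:107528753-107529002, plus strand: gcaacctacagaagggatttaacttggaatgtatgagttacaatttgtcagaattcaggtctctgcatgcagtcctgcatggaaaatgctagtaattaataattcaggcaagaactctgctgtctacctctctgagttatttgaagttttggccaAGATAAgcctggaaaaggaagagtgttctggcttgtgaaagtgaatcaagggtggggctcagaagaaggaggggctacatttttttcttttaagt
Serpinb2, chr1:107511173-107511422, plus strand: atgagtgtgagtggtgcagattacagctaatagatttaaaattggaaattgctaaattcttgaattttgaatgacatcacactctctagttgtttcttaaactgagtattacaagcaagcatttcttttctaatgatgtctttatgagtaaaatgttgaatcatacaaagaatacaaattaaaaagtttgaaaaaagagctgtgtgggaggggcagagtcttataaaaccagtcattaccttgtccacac
Wnt2, chr6:18030446-18030695, minus strand: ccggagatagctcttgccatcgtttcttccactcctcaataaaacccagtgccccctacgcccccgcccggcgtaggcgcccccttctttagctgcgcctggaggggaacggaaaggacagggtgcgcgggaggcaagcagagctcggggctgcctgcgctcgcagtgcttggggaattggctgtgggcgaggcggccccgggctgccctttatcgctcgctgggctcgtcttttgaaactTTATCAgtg
Cyp2r1, chr7:114562973-114563222, minus strand: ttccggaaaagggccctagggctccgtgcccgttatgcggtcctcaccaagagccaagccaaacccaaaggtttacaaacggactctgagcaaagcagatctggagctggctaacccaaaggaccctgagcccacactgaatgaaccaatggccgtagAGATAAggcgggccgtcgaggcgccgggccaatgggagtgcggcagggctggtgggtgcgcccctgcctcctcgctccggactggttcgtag
Serpinb10, Wnt2 and Cyp2r1 hold 1 such hexamer each and Serpinb2 none. Most called genes with a promoter entry held no hexamer, so these 4 do not stand for the called genes as a set. Of the called genes lower on HFD, 42 had an entry in the table of promoter sequences, and 12 of those held a hexamer (28.6%), among them Ptger2, Lyz1, Nxpe4, Tmem219 and Cd302. Of the 12790 tested genes with a matched promoter 10.4% held one, of 7 called genes higher on HFD none did, and of 16 peritoneal genes 2 did (12.5%). A match describes letters in this window and is neither a bound site nor a cause.

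Wnt2, a secreted Wnt ligand, was at 35.9 and 15.7 CPM on CD and at 0.138 and 0 CPM on HFD, with 304 reads against 1 (ratio 331, 95% counting interval 59.0 to 13100; adjusted p = 0.0421). No library of the other groups held more than 0.756 CPM of Wnt2. Platr26, a noncoding RNA, shared this pattern, at 24.1 and 8.77 CPM on CD and without a read on HFD, so at least 69.7-fold lower against a floor of 3 counts over both HFD libraries (adjusted p = 0.0458). Platr26 did not exceed 0.883 CPM in the other groups. Gata6, Wnt2 and Platr26 passed the filter on low counts through their level in the CD libraries of pop1 and could then only differ as lower on HFD, so their calls are no further support for the direction. Cyp2r1, the 25-hydroxylase that activates vitamin D, was at 25.4 and 34.7 CPM on CD and also without a read on HFD, at least 136-fold lower. With an adjusted p of 0.0499 it was the called gene closest to the threshold. Hax1, a mitochondrial survival factor, had 5.84 and 11.4 CPM on CD and no read on HFD (at least 39.9-fold lower), and the mitochondrial ribosomal gene Mrps36 was at least 17.8-fold lower from a low level of 4.74 and 3.36 CPM.

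Clec5a, a C-type lectin that signals through the adaptor Tyrobp, was at 213 and 210 CPM on CD and at 12.1 and 11.4 CPM on HFD, a log2 difference of -4.17 (SE 0.64, adjusted p = 0.00434). Both HFD libraries lay far below both CD libraries. Clec4b1, an activating C-type lectin of myeloid cells, was at 152 and 163 CPM on CD and 25.5 and 34.5 CPM on HFD (adjusted p = 0.00434). The lectins Clec12a and Cd302 fell from 411 and 367 CPM to 148 and 228 CPM and from 514 and 442 CPM to 256 and 239 CPM. Klra2, a Ly49 receptor of a family of similar genes, was at 17.3 and 12.6 CPM on CD and had 3 reads on HFD (ratio 65.7, 95% counting interval 22.1 to 321). Cd53, a tetraspanin of leukocytes, was at 911 and 962 CPM on CD and at 396 and 357 CPM on HFD (adjusted p = 0.0222).

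Lyz2, lysozyme M, which breaks down bacterial cell walls, was at 1203 and 1320 CPM on CD and at 677 and 715 CPM on HFD (log2 difference -0.86, SE 0.14, adjusted p = 0.00479). Lyz1, its close copy, fell from 148 and 225 CPM to 28.9 and 18.7 CPM (log2 difference -2.97, SE 0.51), although reads of such similar genes can be split between them. Ccl11, the eosinophil chemokine eotaxin, was at 64.4 and 122 CPM on CD and at 0.138 and 0.65 CPM on HFD (adjusted p = 0.0337). In pop2 Ccl11 was lower on HFD without overlap as well, at 98.45 to 117.7 CPM on CD and 0.467 to 8.13 CPM on HFD. Stromal cells are also known to make Ccl11, and the stromal markers were lower on HFD as well, with Dcn at 118 and 509 CPM on CD and 3.03 and 30.9 CPM on HFD. The part of stromal cells in the result was not tested. Mcemp1, a myeloid membrane protein, was at 144 and 184 CPM on CD and 16.4 and 1.14 CPM on HFD.

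Some lower genes had CD libraries far apart: A530064D06Rik at 0.182 and 50.9 CPM, Ptger2, the prostaglandin E2 receptor EP2, at 0.912 and 23.0 CPM, and Rgs1, a brake on G protein signalling, at 38.7 and 5.56 CPM in CD libraries 7 and 8. On HFD they had 0, 3 and 6 reads in all. Lipid genes among the lower ones were Fabp5, a fatty acid binding protein, at 26.1 and 16.5 CPM on CD and 0.413 and 0.163 CPM on HFD (adjusted p = 0.0288), Elovl5, a fatty acid elongase, at 235 and 306 against 95.5 and 91.0 CPM, and Asah1, the acid ceramidase of lysosomes, at 689 and 647 against 275 and 273 CPM. In Elovl5 and Asah1 the libraries of a diet differed by much less than the diets did.

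Cacybp, a protein that binds calcyclin, was at 353 and 294 CPM on CD and 106 and 94.6 CPM on HFD, and Trappc1, a subunit of the TRAPP vesicle tether, at 272 and 213 against 89.4 and 76.4 CPM. Sar1b, a GTPase of vesicle budding, was at 231 and 228 against 45.6 and 46.3 CPM. Pak1, a kinase of the cytoskeleton, was at 103 and 109 against 12.4 and 10.9 CPM (log2 difference -3.18, SE 0.52, adjusted p = 0.00479). Eef1akmt1, a lysine methyltransferase of a translation factor, fell from 188 and 142 CPM to 26.3 and 9.26 CPM, and BC064078 from 235 and 195 CPM to 25.3 and 7.31 CPM (adjusted p = 0.00162 for both). The proteasome subunit Psmb2, the actin nucleator subunit Arpc3 and the oligosaccharyltransferase subunit Ostc had log2 differences of -0.98, -1.11 and -1.31. The transcripts of the 65 lower genes had a median length of 1527 bases against 2823 for all genes, and 46 of the 74 calls remained after the trend of the difference with transcript length was removed.

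**Figure D4:**
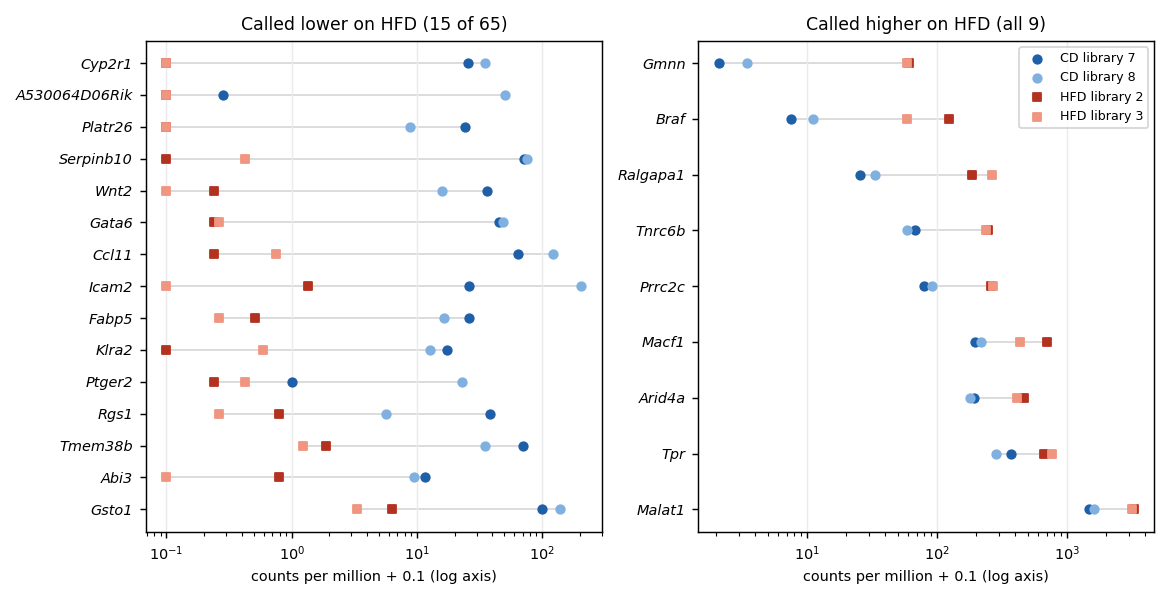
Left, the 15 genes called lower on HFD with the largest fitted log2 difference among those averaging at least 10 CPM on CD; right, the 9 genes called higher, both as CPM plus 0.1 on a log axis in the 4 libraries. Circles (CD) and squares (HFD) do not overlap in any gene, which the calling rule requires, and A530064D06Rik and Ptger2 show CD libraries far apart.

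The 9 genes higher on HFD had long transcripts, with a median of 8219 bases. Braf, a kinase of the MAP kinase cascade, was at 7.48 and 11.1 CPM on CD and at 123 and 58.7 CPM on HFD, a log2 difference of 3.28 (SE 0.53, adjusted p = 0.00479). Ralgapa1, which switches off Ral GTPases, was at 25.4 and 33.2 CPM on CD and at 187 and 266 CPM on HFD (log2 difference 2.95, adjusted p = 0.00514). Gmnn, geminin, which prevents a second round of DNA replication in a cell cycle, was the exception in length with 968 bases; it was at 2.01 and 3.36 CPM on CD and at 60.6 and 59.0 CPM on HFD (log2 difference 4.46, SE 0.86, adjusted p = 0.0196). On CD, pop2 was at 84.1 and 86.6 CPM for Braf and at 63.1 and 69.5 CPM for Gmnn, above both CD libraries of pop1 in each gene.

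Malat1, a long noncoding RNA kept in the nucleus, was at 1474 and 1596 CPM on CD and at 3249 and 3161 CPM on HFD (log2 difference 1.06, SE 0.20, adjusted p = 0.0168). In pop2 Malat1 was at 1658 and 1838 CPM on CD and at 3316 and 3563 CPM on HFD. Tnrc6b, a partner of Argonaute in silencing by microRNAs, was at 67.7 and 58.6 CPM on CD and 246 and 239 CPM on HFD, and Prrc2c at 79.5 and 92.1 against 261 and 270 CPM. Macf1, a giant linker of microtubules and actin, was at 196 and 218 CPM on CD and 695 and 436 CPM on HFD. Arid4a, a chromatin protein, and Tpr, a filament of the nuclear pore, had log2 differences of 1.25 and 1.12. Arid4a, Tpr, Tnrc6b and Prrc2c also lay above on HFD without overlap in pop2, where Macf1 overlapped. With the trend with transcript length removed, 4 genes were called higher. The uncalled gene with the smallest p was Ahnak, a giant scaffold protein, at 505 and 459 CPM on CD and 916 and 1219 CPM on HFD (adjusted p = 0.0506), and Tyrobp, the adaptor of Clec5a, had the same adjusted p at 556 and 563 CPM on CD and 336 and 345 CPM on HFD.

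No gene of resident macrophages was called, against 0.436% of all genes. At so small a share, a list of this size without a call is no result about its genes. The same holds for the other lists given here as without a call. Of 25 tested, 9 lay above and 9 below on HFD, against 15.4% and 26.5% of all genes, the median log2 difference was -0.07 and the sums were 19880 and 18560 CPM on CD and 18400 and 18930 CPM on HFD. Lyve1, a hyaluronan receptor, was at 1072 and 846 CPM on CD and 592 and 750 CPM on HFD (adjusted p = 0.8), and Gas6, a bridge to dying cells, at 385 and 295 against 508 and 633 CPM (adjusted p = 0.418). The scavenger and lectin genes Mrc1, F13a1 and Stab1 lay above on HFD with log2 differences of 0.25, 0.16 and 0.47, and Cd5l lay below, at 161 and 190 against 71.9 and 62.2 CPM. Among 11 sort and lineage markers none was called, 4 lay below and 1 above, and the median was -0.29; Adgre1, which encodes F4/80, was at 565 and 541 CPM on CD and 348 and 292 CPM on HFD (adjusted p = 0.144). H2-Aa, H2-Eb1 and Cd74 overlapped between the diets, and over the 15 antigen presentation genes 3 lay below and 1 above with a median of -0.21 and no call. The 28 complement and scavenger genes had 13 below and 6 above (median -0.30), the 33 lysosomal genes 11 and 6 (median -0.17) and the 18 iron and heme genes 4 and 3 (median -0.13), again with no call. Lamp2, a lysosomal membrane protein, was the lysosomal gene with the smallest p, at 1100 and 993 CPM on CD and 527 and 623 CPM on HFD (adjusted p = 0.189).

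No gene of lipid handling was called higher on HFD, against 0.0531% of all genes. Of 25 genes known from lipid-associated macrophages 15 lay below and 3 above, against 26.5% and 15.4% of all genes. Fabp5 was called lower, against 0.383% of all genes, and the median was -0.43. Trem2, the lipid receptor that leads this set, was 1 of the 3 above, at 74.0 and 94.2 CPM on CD and 113 and 265 CPM on HFD (adjusted p = 0.59). Apoe and Ctsd were the others, with log2 differences of 0.30 and 0.14. Cd36, a fatty acid transporter, was at 2056 and 1798 CPM on CD and 1108 and 1453 CPM on HFD (adjusted p = 0.598). The 17 cholesterol efflux genes (4 below, 2 above, median -0.08), the 26 sterol and fatty acid synthesis genes (4 and 5, median -0.06), the 31 fatty acid oxidation genes (5 and 6, median -0.22) and the 19 glycolysis genes (3 and 3, median -0.12) held no called gene. Hilpda, an inhibitor of lipolysis induced by fatty acids, had the smallest p of these 4 lists, at 118 and 138 CPM on CD and 26.4 and 0.488 CPM on HFD (adjusted p = 0.122).

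Of 56 nuclear genes of the respiratory chain and the ATP synthase 27 lay below on HFD and 5 above, and 3 were called lower. All genes had 26.5%, 15.4% and 0.383%. The 3 called lower were Ndufs4 of complex I, at 204 and 203 CPM on CD and 84.8 and 67.9 CPM on HFD (adjusted p = 0.0148), and Atp5c1 and Atp5f1 of the ATP synthase, with log2 differences of -1.15 and -1.04. The median over the list, -0.21, was close to the -0.19 of all genes. Of 36 matrix and adhesion genes 19 lay below and 1 above, with a median of -1.07, and Icam2 and Fn1, both also in the peritoneal list, were called. The hyaluronan receptor Cd44 was at 260 and 428 CPM on CD and 211 and 129 CPM on HFD (adjusted p = 0.0878), and the integrin beta subunit Itgb1 at 568 and 563 against 356 and 330 CPM (adjusted p = 0.203). Both lay below on HFD without overlap.

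**Figure D5:**
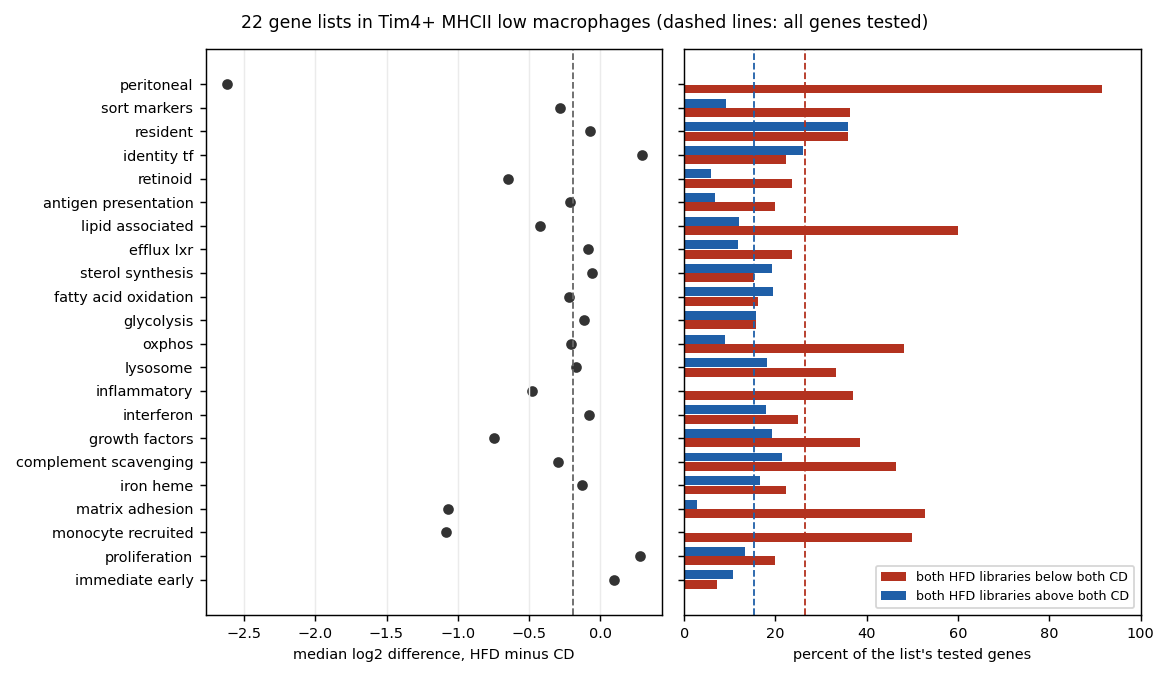
Left, median log2 difference (HFD minus CD) of 22 gene lists in Tim4+ MHCII low macrophages, with that of all genes tested, -0.19, as a dashed line. Right, percent of each list's tested genes with both HFD libraries below both CD libraries (red) or above (blue), with the shares of all genes, 26.5% and 15.4%, as dashed lines; the peritoneal list has the lowest median, -2.62, and the highest share below, 22 of 24.

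Called lower genes outside the lists included some that are high in monocytes. Klra2 was at 549 to 736 CPM there, Mcemp1 at 344 to 470, Nxpe4 at 437 to 638 and Cytip at 928 to 1079 CPM. Gata6, Wnt2, Platr26, Rgs1 and Ccl11, also called lower, did not exceed 0.3803 CPM in monocytes. The part of monocytes in the result was not tested. No gene of the list of monocytes and recruited cells was called, against 0.436% of all genes. Of 20 such genes 10 lay below on HFD and none above, against 26.5% and 15.4% of all genes, with a median of -1.08. Ifitm3, an antiviral membrane protein, was at 535 and 546 CPM on CD and 341 and 335 CPM on HFD (adjusted p = 0.0773), and Cd52 at 106 and 104 against 62.3 and 17.7 CPM (adjusted p = 0.0796). Ccr2, the receptor by which monocytes enter tissue, was at 96.8 CPM in CD library 7 alone, and at 2.49, 9.92 and 4.06 CPM in CD library 8 and HFD libraries 2 and 3. Without CD library 7 its log2 difference turned to 1.5. The 27 inflammatory genes had 10 below, none above, a median of -0.48 and no call, with Ccl2 at 373 and 320 CPM on CD and 239 and 244 CPM on HFD (adjusted p = 0.477). The 28 interferon-stimulated genes were split (7 below, 5 above, median -0.08), and Xaf1 had the smallest p, at 121 and 106 against 35.4 and 34.0 CPM (adjusted p = 0.183). Of 28 immediate early and heat shock genes 2 lay below and 3 above (median 0.09), although Dusp1, a phosphatase induced by stress, was at 261 and 244 CPM on CD and 90.9 and 144 CPM on HFD (adjusted p = 0.372).

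The summed level of proliferation genes was higher in both HFD libraries, at 370 and 426 CPM on CD and 685 and 639 CPM on HFD. Of its 30 genes 4 lay above and 6 below, against 15.4% and 26.5% of all genes. None was called, against 0.436% of all genes, and the median was 0.27. The replication helicase subunit Mcm5 was at 7.29 and 2.78 CPM on CD and at 65 and 48.1 CPM on HFD (adjusted p = 0.416), and Top2a, a topoisomerase, at 9.30 and 3.95 against 15.7 and 104 CPM (adjusted p = 0.297). Mki67, the usual marker of cycling cells, lay between 4.01 and 10.6 CPM in all 4 libraries. Of 26 growth factors 10 lay below and 5 above, against the same 26.5% and 15.4%, with a median of -0.74 and no call. Pdgfc, a growth factor for fat cell precursors, was at 255 and 213 CPM on CD and 290 and 344 CPM on HFD (adjusted p = 0.939).

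No marker of other cell types was called, against 0.436% of all genes. The counts below stand against 26.5% of all genes below and 15.4% above. Among lymphocytes, 4 of 11 T cell genes (median -0.41), 2 of 8 B cell genes (median -0.35) and 1 of 7 NK genes (median -0.89) lay below on HFD. Among other leukocytes, these were 2 of 9 neutrophil genes (median -0.69), 1 of 6 genes of eosinophils and mast cells (median -0.66) and 5 of 11 dendritic genes (median -0.76). Among cells of the tissue, they were 1 of 10 adipocyte (median -0.34), 5 of 12 stromal (median -1.76), 2 of 10 endothelial (median -0.87) and 5 of 9 mesothelial genes (median -1.53). Of 11 red cell genes (median 4.52) none and of 7 platelet genes (median -1.01) 1 lay below. Above on HFD lay 2 adipocyte, 2 dendritic, 1 neutrophil and 1 endothelial gene, and none of the other lists of cell types. Apart from the red cell, stromal and dendritic lists, their sums lay at or under 182 CPM in each of the 4 libraries. The dendritic sums were 1035 and 1295 CPM on CD and 690 and 949 CPM on HFD. The median of the red cell list came from HFD library 2 alone, in which Hbb-bs reached 142 CPM against 0 CPM in HFD library 3.

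The diet effect of pop1 was set against that of pop2, the other Tim4+ population, by an interaction contrast in the same fit. It was higher in pop1 for 63 genes (0.371%) and lower for 18 (0.106%), and for 6 and 2 with the receptor background as covariate. In pop2 that background was at 388 and 398 CPM on CD and at 490 and 686 CPM on HFD, opposite in direction to pop1. In 62 of the 63 both HFD libraries of pop2 lay below both CD libraries of pop2, so most of these differences contain a lower level in pop2. The share of all genes that lay so in pop2 was not computed. In 32 of the 63 the HFD libraries of pop1 lay above, against 15.4% of all genes. Of the 18, 17 had both HFD libraries of pop1 below both CD libraries of pop1, against 26.5% of all genes. The contrast that selected these genes was built from the same values, so the counts describe the selection and are no independent support. The contrast of pop1 with the mean of pop2, pop3 and pop4 left 2 genes higher (0.0118%), Braf and Gmnn, and 10 lower (0.059%), which were Serpinb10, BC064078, Nxpe4, Eef1akmt1, Ece2, Tmem38b, Msra, Prg4, Hax1 and Tmem219. Without CD library 7, CD library 8, HFD library 2 and HFD library 3 the counts against pop2 were 13 and 11, 44 and 8, 54 and 29, and 47 and 7, and those against the other 3 populations 1 and 11, 6 and 12, 9 and 28, and 2 and 6. The 16 adipose libraries alone left 1 gene against pop2 and 0 against the 3, and the covariate left 2 higher and 6 lower against the 3.

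Prg4 was the only peritoneal gene whose diet effect differed from that of the other populations by these tests. In pop2 it was at 55.4 and 69.5 CPM on CD and at 98.8 and 71.7 CPM on HFD, and the difference of the log2 diet effects was -2.50 (SE 0.51, adjusted p = 0.0312) against pop2 and -2.36 (SE 0.42, adjusted p = 0.0254) against the 3 populations. For Gata6 the difference missed the threshold (adjusted p = 0.072 and 0.199), and in pop2 it was near the floor on both diets, at 0.524 to 1.17 CPM. Fn1 was also lower on HFD in pop2 by its levels, at 233 and 57.6 CPM on CD and 29.2 and 13.8 CPM on HFD, and the difference of its diet effects did not pass (difference 0.92, SE 0.57, adjusted p = 0.565).

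Of the lower genes outside that programme, Clec5a overlapped between the diets in pop2, where it was at 171 and 188 CPM on CD and at 119 and 194 CPM on HFD (difference -3.97, SE 0.83, adjusted p = 0.0372). In pop3 Clec5a was lower on HFD without overlap, at 200.5 and 356.1 CPM on CD and 44.6 and 155.3 CPM on HFD. Its contrast with the 3 populations missed the threshold (adjusted p = 0.0572). Serpinb10 was near the floor in pop2 on both diets, at 0.595 to 1.63 CPM, and passed both contrasts (adjusted p = 0.00523 and 0.000236). Since it had little room to fall in pop2, the contrast with pop2 mostly restates the drop in pop1. Tmem38b, an ion channel subunit of the endoplasmic reticulum, went opposite ways: 70.2 and 35.0 CPM on CD and 1.79 and 1.14 CPM on HFD in pop1, 7.06 and 0.349 CPM on CD and 16.1 and 20.1 CPM on HFD in pop2. Msra, which repairs oxidised methionine, did so as well, from 108 and 145 CPM to 11.4 and 9.10 CPM in pop1 and from 2.87 and 10.7 CPM to 46.0 and 103 CPM in pop2 (adjusted p = 0.0093). Ece2, a metalloprotease, was at 39.4 and 42.3 CPM on CD and at 5.37 and 0.325 CPM on HFD in pop1, and did not exceed 3.03 CPM in pop2. Msra and Ece2 were not called for the diet effect within pop1 (adjusted p = 0.0621 and 0.0677). Many other genes called lower in pop1 were also lower on HFD without overlap in pop2, so such calls are not particular to pop1. Cacybp was at 316 to 351 CPM on CD and 126 to 129 CPM on HFD there, and Clec12a at 596 to 658 against 266 to 275 CPM. Cd302, Pak1, Clec4b1, Trappc1, Elovl5, Ndufs4 and Ostc shared this, whereas others, such as Eef1akmt1, overlapped in pop2. Lyz2 was at 1241 to 1314 CPM on CD and 680 to 801 CPM on HFD there, Asah1 at 942 to 977 against 276 to 303 CPM. Cd53 was at 1294 to 1342 against 243 to 410 CPM in pop2. The interaction contrast with pop2 did not pass for Lyz2, Asah1 and Cd53 (adjusted p = 0.9185, 0.6526 and 0.4816).

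In the other direction Braf, Ralgapa1 and Gmnn were higher on HFD in pop1, and in pop2 both HFD libraries lay below both CD libraries. In pop4 Ralgapa1 was higher on HFD without overlap, at 52.6 and 114.7 against 220.5 and 256.6 CPM. Braf was so too, at 41.0 and 68.3 against 70.8 and 83.1 CPM, and Gmnn overlapped. In pop3 Gmnn lay above on HFD, Braf lay below and Ralgapa1 overlapped. Ralgapa1 missed the threshold against the 3 populations (adjusted p = 0.0558). In pop2 Ralgapa1 was at 124 and 149 CPM on CD and 56.1 and 48.1 CPM on HFD (difference 4.33, SE 0.66, adjusted p = 0.00523), and Braf at 84.1 and 86.6 against 17.7 and 49.7 CPM (difference 4.62, SE 0.72, adjusted p = 0.00523). The genes below were near or under the floor in at least 1 group. Armcx5 was at 0.547 and 0.585 CPM on CD and 56.6 and 13.5 CPM on HFD in pop1, and at 58.5 and 12.2 CPM on CD and 0 and 0.233 CPM on HFD in pop2 (adjusted p = 0.0128). Tmem42 was at 6.02 and 9.51 against 91.5 and 44.9 CPM in pop1 and at 1.54 and 38.4 against 0 and 0.233 CPM in pop2 (adjusted p = 0.00868). Zfp97, a zinc finger gene, did not exceed 1.62 CPM in pop1 and was at 36.0 and 49.8 against 0.198 and 0.233 CPM in pop2. Armcx5 and Tmem42 were not called within pop1 (adjusted p = 0.13 and 0.222).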

How the data were processed

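RNA-seq libraries of 200 sorted cells were deposited as 1 table of raw read counts per gene, whole numbers with no normalization by the authors. Per the submitters' processing notes, reads were handled with STAR 2.5.3a and HOMER on mm10; whether counting used the strand is not given in the sources used here. The table held 24537 RefSeq gene models for 25 libraries. Groups and library numbers came from the titles.

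Counts were fitted with edgeR 4.0.16 in R 4.3.3 (TMM scaling, filterByExpr, robust quasi-likelihood fit, 10 group means, 15 residual degrees of freedom, common BCV 0.749), and p-values were adjusted by Benjamini-Hochberg over the 16961 genes tested. A call also required that the libraries of the diets did not overlap. DESeq2 1.42.0, limma 3.58.1 (voom), other scalings, other sets of libraries, the receptor background as a covariate, no filter, each library left out and, chosen after seeing the data, removal of a length trend and of the pop2 HFD libraries were alternatives. Calculations were tested on simulated data. Counting intervals are exact, at 95%.

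The population, its members and the 34 gene lists (648 genes, 643 in the table, 625 tested) were chosen with earlier results of these data known. Named genes were the called genes with the largest difference (up to 15 per direction, at least 10 CPM in the higher group), called members of each list or else up to 4 with the smallest p, a set of fixed genes such as Gata6 and Timd4, up to 8 genes per direction from the contrast with pop2, and those nearest the threshold. Other genes named, among them further called genes and list members, were chosen after their values were seen. Of the 74 called genes, 13 overlap another gene model. Promoters are from RefSeq.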

Additional observations from a re-analysis of the deposited data

Results flagged for a closer look

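The diet effect on the log2 scale (HFD minus CD) differed between pop1 and pop2, by the interaction contrast of edgeR at an adjusted p of 0.05, in the genes named here. It was lower in pop1 for Tmem38b (-7.45), Serpinb10 (-8.79), Msra (-7.07), Nxpe4 (-5.91), Hax1 (-10.05), Prg4 (-2.50), Ece2 (-6.75), Clec5a (-3.97), BC064078 (-3.07), Eef1akmt1 (-2.67), A530064D06Rik (-10.94) and Rgs1 (-7.83). It was higher in pop1 for Ralgapa1 (4.33), Braf (4.62), Gmnn (6.81), Tmem42 (10.43), Armcx5 (14.02) and Zfp97 (9.12). Where a group was at or near 0 reads, as in Armcx5, Hax1 and A530064D06Rik, the fitted size depends on the prior count and is no bound. Serpinb10, Nxpe4, Ece2, Rgs1 and A530064D06Rik did not exceed 6.07 CPM in pop2 on either diet. A drop in pop2 could hardly show in them, so their difference mostly restates the change in pop1.

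Against the mean effect of pop2, pop3 and pop4 the difference was lower in pop1 for Serpinb10 (-9.45), BC064078 (-3.48), Nxpe4 (-5.27), Eef1akmt1 (-2.93), Ece2 (-6.45), Tmem38b (-4.99), Msra (-5.79), Prg4 (-2.36), Hax1 (-9.55) and Tmem219 (-2.60), and higher for Braf (4.36) and Gmnn (5.04).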

How the results depend on the processing

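All 74 calls kept their direction wherever a value could be fitted, but their number moved. Genes called higher and lower within pop1 numbered 232 and 446 with DESeq2, 1 and 1 with the 16 adipose libraries, 2 and 16 with the receptor background as covariate, 0 and 0 with the 4 pop1 libraries (1150 genes at an unadjusted p under 0.05), 1 and 0 with the 8 Tim4+ libraries, 19 and 68 without the pop2 HFD libraries, 4 and 46 with the length trend removed, and 8 and 28 without a filter. Leaving out 1 library gave 2 to 11 higher and 18 to 101 lower. Of the calls, 87.8% were lower, against 65.8% with DESeq2. The median of all genes, -0.19, was -0.27 with upper-quartile scaling and changed sign to 0.046 with the covariate, 0.021 with the 4 pop1 libraries and 0.00048 with the 8 Tim4+ libraries; without 1 library it ran from -0.37 to -0.055.

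Against pop2 the counts higher and lower were 35 and 17 with RLE factors, 25 and 17 with upper-quartile factors, 86 and 11 without a filter, 307 and 276 with DESeq2, 1 and 0 with 16 libraries, 6 and 2 with the covariate and 23 and 19 with the length trend removed; without 1 library they ran from 13 to 54 and from 7 to 29. Against the 3 populations they were 103 and 165 with DESeq2, 0 and 0 with 16 libraries and 2 and 6 with the covariate, and from 1 to 9 and from 6 to 28 without 1 library.

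Same-numbered libraries of different populations correlated at -0.00984 to 0.0796 in their deviations from the group means. With 2 libraries per group and a wide spread between them, this cannot decide whether a shared number means shared animals. The diets share no number, so no fixed block could be fitted within pop1. A random replicate block (voom, 16 adipose libraries, consensus correlation -0.0218) gave 1 and 6 within pop1, 0 and 0 against pop2 and 0 and 2 against the 3; a fixed replicate block gave 0 and 0 in both contrasts.

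Some uncalled genes changed sign. With the covariate the log2 difference was 0.077 for Tgfb2, -0.079 for Ctsd, -0.028 for F13a1, 2.81 for Msln and 1.15 for Upk3b. Leaving out 1 library at a time, it ran from -3.76 to 1.5 for Ccr2, -0.22 to 0.0060 for Cd74, -0.77 to 1.33 for H2-Eb1, -6.71 to 6.59 for Hbb-bs, -5.17 to 3.54 for Lbp, -0.17 to 0.98 for Mki67, -1.21 to 0.95 for Msln, -5.48 to 2.65 for Rarb and -1.16 to 4.89 for Upk3b. For Cd74 it was 0.013 without the pop2 HFD libraries and 0.048 with the length trend removed, and for Upk3b 0.82 with the random block. Apart from the left-out libraries, the cause was not tested.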
